A study of Mus musculus with 12 samples.

Results

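Dusp4, Dusp5, Dusp6, Dusp15, Spry1, Spry2, Spry4, Spred1, Etv4 and Etv5 are 10 of the 24421 genes listed in the files, and were followed as genes of extracellular signal-regulated kinase (ERK) feedback, found in the files by their gene symbols. RNA was sequenced from B16F10 cells, a mouse melanoma line grown in culture. The 4 groups of 3 replicates were cells with the dimethyl sulfoxide (DMSO) vehicle (control), 5-aza-2'-deoxycytidine (DAC) at 25 nM for 72 h, sulforaphane (SFN) for the last 48 of these 72 h, and DAC at 25 nM for 72 h with SFN in the last 48 h (DAC+SFN). DAC is a nucleoside that inhibits DNA methyltransferases, and SFN is an isothiocyanate of cruciferous vegetables. By the study's methods DAC was dissolved in DMSO and SFN in water, so DMSO was the vehicle of DAC only. The methods do not state whether cells with SFN alone also received DMSO. By the labels, the SFN dose was 5 nM in the single treatment and 5 µM in the combination treatment, whereas the study's methods give micromolar for both, so the dose of the single treatment is uncertain in every comparison of SFN here. All groups were of 1 cell line. The study's methods describe the treatments as repeated independently, and the labels themselves give only a replicate number.

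ERK is the last kinase of the cascade that runs from growth factor receptors through RAS, RAF and MEK, and its activity is limited by proteins whose genes it switches on. The dual specificity phosphatases Dusp4, Dusp5 and Dusp6 remove the phosphates that activate mitogen-activated protein kinases (MAPK), and the Sprouty and Spred proteins act further up, between the receptor and RAF. Etv4 and Etv5 are ETS transcription factors of the PEA3 group, whose genes are also switched on by ERK signaling, and transcripts of several of these genes are widely read as a measure of ERK output in melanoma.

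The 250 bases before the transcription start are shown for 3 genes that rose in the combination treatment (Dusp6, Spry2 and Etv5) and for Spry1, which did not pass the test, so that the windows can be set side by side. They are from RefSeq on GRCm38.p6, which has an entry for 6 of the 10 genes, and are written 5′ to 3′ on the strand of the gene, with each CpG dinucleotide, the site at which DNA methyltransferases act, in capitals.
Dusp6, chr10:99262981-99263230, plus strand: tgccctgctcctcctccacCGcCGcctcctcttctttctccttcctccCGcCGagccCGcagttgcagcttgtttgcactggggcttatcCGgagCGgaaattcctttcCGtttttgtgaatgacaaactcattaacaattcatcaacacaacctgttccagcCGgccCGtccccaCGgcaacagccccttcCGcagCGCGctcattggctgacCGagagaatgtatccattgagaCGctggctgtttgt
Spry2, chr14:105896820-105897069, minus strand: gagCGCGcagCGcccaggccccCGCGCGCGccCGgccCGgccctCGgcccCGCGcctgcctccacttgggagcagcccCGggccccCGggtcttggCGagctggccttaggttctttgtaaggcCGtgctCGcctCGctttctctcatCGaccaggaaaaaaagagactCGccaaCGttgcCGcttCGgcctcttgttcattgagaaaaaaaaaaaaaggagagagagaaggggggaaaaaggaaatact
Etv5, chr16:22439571-22439820, minus strand: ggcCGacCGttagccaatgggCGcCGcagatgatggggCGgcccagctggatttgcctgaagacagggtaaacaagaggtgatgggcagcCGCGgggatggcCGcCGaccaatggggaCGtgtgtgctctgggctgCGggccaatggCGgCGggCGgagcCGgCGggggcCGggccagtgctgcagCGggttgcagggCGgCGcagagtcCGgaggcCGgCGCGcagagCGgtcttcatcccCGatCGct
Spry1, chr3:37639697-37639946, plus strand: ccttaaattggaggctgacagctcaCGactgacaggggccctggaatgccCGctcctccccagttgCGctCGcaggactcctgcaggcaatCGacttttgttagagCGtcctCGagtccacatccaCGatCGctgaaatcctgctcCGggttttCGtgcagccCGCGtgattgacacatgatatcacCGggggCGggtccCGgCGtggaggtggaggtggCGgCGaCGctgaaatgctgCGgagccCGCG
The windows held 16 CpG in Dusp6, 23 in Spry2, 27 in Etv5 and 23 in Spry1, where the median of 32851 promoters of the same length was 6. The number in Dusp6 was above that of 74.6% of promoters, those in Spry2 and Spry1 above 86.7% and that in the window shown for Etv5 above 91.4%. By CpG number the window of Spry1 was thus the same as that of Spry2. Both strands were searched for the ETS site CCGGAA, the AP-1 site TGANTCA, the CRE TGACGTCA and the antioxidant response element TGACNNNGC. These 4 windows held none of these sequences. The shorter ETS sequence GGAA was not searched for, and the windows shown for Dusp6, Spry2 and Spry1 hold it. The same bases can match the AP-1 site and the antioxidant response element. The window shown for Etv5 is that of 1 of its 2 starts, and that of the other (chr16:22438369-22438618) held 18 CpG, above 78.3% of promoters, and none of the motifs. Of the other windows, that of Spred1 held 31 CpG (above 94.8% of promoters) and none of the motifs, and that of Dusp5 held 21 CpG (above 83.7%) and 1 match to TGACNNNGC. The gene positions given below are from GENCODE. By these, the window shown for Etv5 and that of Dusp5 lie partly inside the gene. Of all promoters, 12% held CCGGAA, 6.75% TGANTCA, 1.55% TGACGTCA and 10.2% TGACNNNGC. DNA methylation and factor binding were not measured in these files.

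Total gene counts per sample ranged from 15880957 to 27291436. Levels are given as CPM (counts per 1e+06 counted reads) scaled by TMM, and genes had to reach 1 CPM (16 to 27 counts) in at least 3 of the 12 libraries to be tested, which 11638 genes did. Of the 10 melanocyte markers, 10 passed this filter, with a summed level between 22548 and 31337 CPM over all libraries. At an adjusted p under 0.05, Oca2 and Slc45a2 were higher with DAC+SFN than in control (log2 fold changes of 0.30 and 0.18). Pmel and Tyrp1 were lower (-0.36 and -0.17). Of 17 markers of fibroblasts, leukocytes, endothelium and epithelium, 4 passed and 11 stayed under 10 counts in every library. Their summed level was 23.4 to 322 CPM in control, 30.9 to 371 CPM under DAC, 28.4 to 257 CPM under SFN and 39.7 to 259 CPM with DAC+SFN. These sums are largely Col1a1, a fibroblast collagen, which was at 72.1, 15.6 and 312 CPM in control and was lowest in replicate 2 and highest in replicate 3 of each group. Cd68, a lysosomal protein used as a macrophage marker, was at 2.94, 4.78 and 2.31 CPM in the control replicates and at 9.61, 11.2 and 8.27 CPM with DAC+SFN, a log2 fold change of 1.55 (adjusted p = 1.98e-05, SE 0.17), while the leukocyte marker Ptprc had at most 2 counts in a control library. Cd68 also rose with SFN (1.11, adjusted p = 0.000729) and was higher with DAC+SFN than with DAC (0.94, adjusted p = 0.00170). Col1a2, another fibroblast collagen, was lower with DAC+SFN than with DAC (-0.71, adjusted p = 0.0493). Of the 17 markers of other cell types, Cd68 and Col1a2 were those that passed in any comparison. The part of other cells in the results was not tested. In bulk RNA, fewer cells of a type and less RNA per cell cannot be told apart.

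Of the 10 genes, 9 passed the filter and Dusp5 did not. Per kilobase of exon, Dusp4 and Dusp6 were the highest in control cells, at 42.3 ± 0.823 and 38.9 ± 3.10 CPM per kb (SD, n = 3), and their ranges overlapped. Spred1 followed at 14.2 ± 0.693 CPM per kb. Spry2 and Spry1, at 8.03 ± 0.884 and 7.52 ± 0.105 CPM per kb, were not separated by their spread. Etv5 was at 4.73 ± 0.937 CPM per kb and stood clear of its neighbours in the order. Spry4 at 1.19 ± 0.125 and Etv4 at 0.785 ± 0.392 CPM per kb overlapped, and Dusp5 and Dusp15 were lowest, at 0.0800 ± 0.0364 and 0.0722 ± 0.0900 CPM per kb. With DAC+SFN, Dusp6 at 67.8 ± 13.5 and Dusp4 at 65.5 ± 15.7 CPM per kb were still the highest. Spry2 at 15.8 ± 3.98, Etv5 at 15.8 ± 4.14 and Spred1 at 15.5 ± 1.13 CPM per kb then had overlapping ranges, so that Etv5 no longer stood below Spred1 and Spry2. These levels assume that all exons of the annotation were used.

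With SFN, 6 of the 9 tested genes rose, Dusp4, Dusp6, Spry2, Spry4, Etv4 and Etv5, and none fell, at an adjusted p under 0.05 by edgeR's quasi-likelihood test with the replicate number as a block. Over all genes 13.9% passed this test, 8.27% higher and 5.65% lower. With DAC+SFN the same 6 genes rose, where 31.6% of all genes passed, 17.0% higher and 14.7% lower. Dusp15 also passed, which made 7 of 9, but it was tested at all only because its 3 DAC+SFN libraries, and no other library, were above 1 CPM, so that the filter fixed its direction in every comparison of DAC+SFN. With DAC, 2 of 9 rose, Spry4 and Etv5, where 0.180% of all genes (21 genes) passed, all of them higher. The median log2 fold change of the 9 genes was 0.37 with DAC, 0.81 with SFN and 0.96 with DAC+SFN, beside 0.00, 0.00 and 0.01 over all genes. Without Dusp15 it was 0.44, 0.68 and 0.88 over 8 genes. These comparisons share the control samples and are not independent of each other. Without the replicate block none of the 9 genes passed with DAC (adjusted p = 1.00 in each) or SFN (adjusted p from 0.0925 to 0.491), while 7 passed with DAC+SFN. In the genes called with DAC or SFN the log2 fold changes hardly moved and the SE grew. Etv5 without the block was at 1.46 with SFN (SE 0.34) and 0.88 with DAC (SE 0.34).

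**Figure D1:**
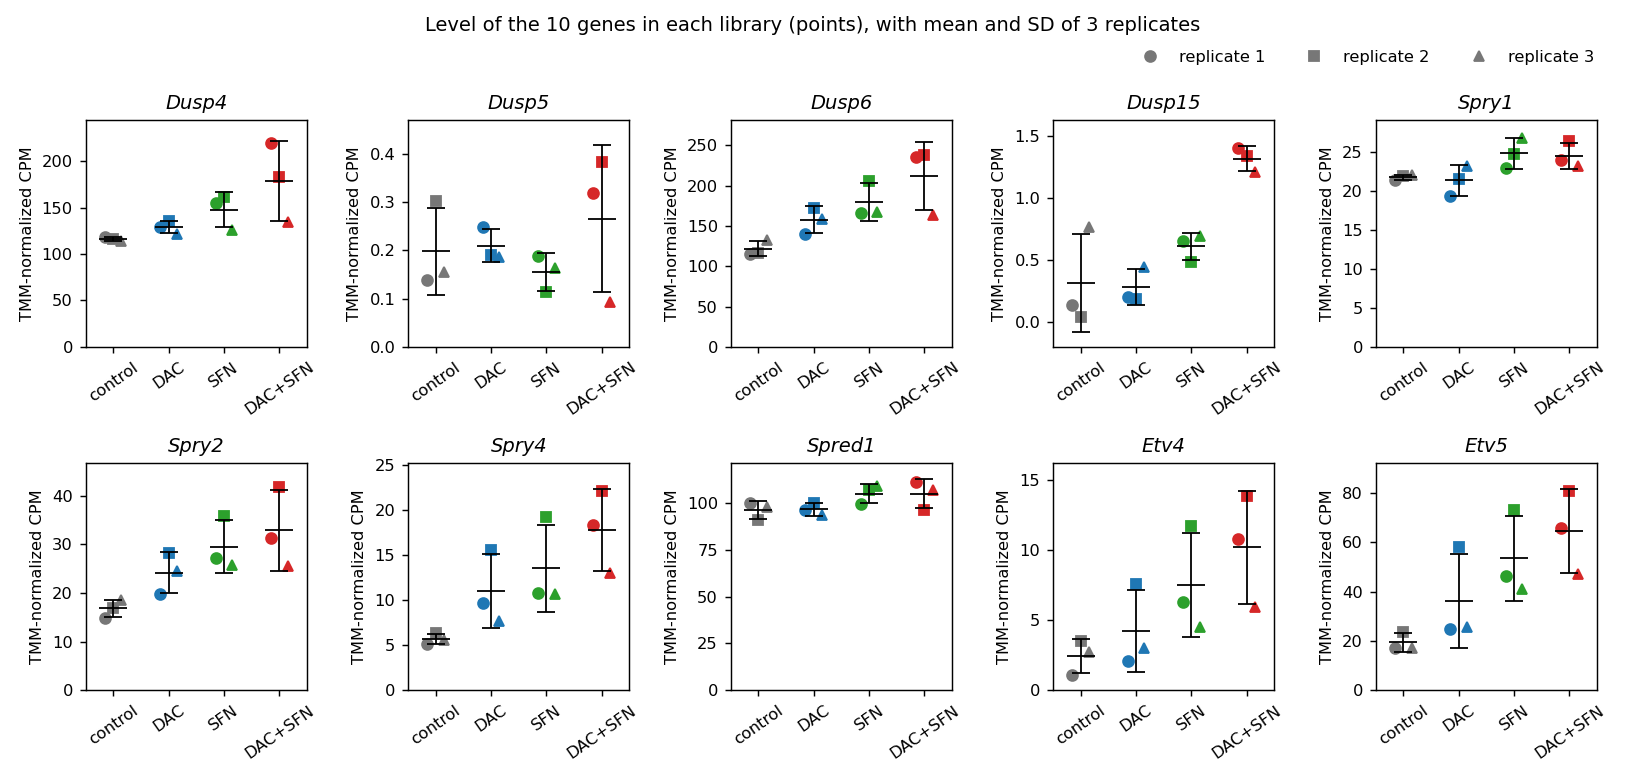
TMM-normalized CPM of each of the 10 genes (y axis, 1 panel per gene with its own scale) in control, DAC, SFN and DAC+SFN cells (x axis). Points are libraries, with the symbol giving the replicate number, and bars give the mean ± SD of 3 replicates; the DAC+SFN libraries of 8 genes all lie above their control libraries, while Spred1 and Dusp5 overlap.

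Dusp6 (chr10:99263231-99267489, plus strand, mm10) encodes a cytoplasmic phosphatase that acts on ERK. Its level was 115, 117 and 133 CPM in control replicates 1, 2 and 3, 140, 173 and 159 CPM under DAC, 166, 206 and 167 CPM under SFN, and 236, 238 and 164 CPM under DAC+SFN. Each treated library was above each control library, and replicate 3 of DAC+SFN lay within the range of the DAC libraries and below every SFN library. Compared to control it rose by 0.55 on the log2 scale with SFN (adjusted p = 0.00543, SE 0.11) and 0.79 with DAC+SFN (adjusted p = 0.000168, SE 0.12). With DAC it was 0.37 (SE 0.12) and did not pass after adjustment (adjusted p = 0.258).

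Dusp4 (chr8:34807297-34819894, plus strand) encodes a nuclear phosphatase of the same family, which acts on ERK and other MAPK. Its level was 118, 116 and 114 CPM in control, 129, 136 and 122 CPM under DAC, 155, 161 and 126 CPM under SFN, and 220, 183 and 135 CPM under DAC+SFN. The control libraries lay closest together, and those of DAC+SFN were spread the most, with replicate 3 the lowest. Its increase over control was 0.34 on the log2 scale with SFN (adjusted p = 0.0303, SE 0.10) and 0.61 with DAC+SFN (adjusted p = 0.000333, SE 0.10), and 0.15 with DAC (adjusted p = 0.646). The call with SFN did not hold when control replicate 1 (0.28, adjusted p = 0.158), control replicate 2 (0.29, adjusted p = 0.152) or any of SFN replicates 1, 2 and 3 (0.35, 0.28 and 0.37, adjusted p = 0.0753, 0.145 and 0.0672) was left out.

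Dusp5 (chr19:53529109-53542431, plus strand), a nuclear phosphatase that acts on ERK, was hardly detected. It had 3, 7 and 3 counts in control, 6, 3 and 5 under DAC, 4, 3 and 4 under SFN and 7, 8 and 2 under DAC+SFN. In a fit with no filter on low counts its log2 difference from control was 0.12 under DAC (SE 0.80), -0.35 under SFN (SE 0.83) and 0.36 under DAC+SFN (SE 0.78), with adjusted p = 1.00, 0.904 and 0.826, so that a change was not detectable at this depth.

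Dusp15 (chr2:152940997-152951698, minus strand) is an atypical member, a small phosphatase without the MAPK-binding domain of Dusp4, Dusp5 and Dusp6. It had 3, 1 and 15 counts in control, 5, 3 and 12 under DAC, 14, 13 and 17 under SFN and 31, 28 and 26 under DAC+SFN. It passed the filter through the combination treatment, in which its level was 1.32 ± 0.0999 CPM (SD, n = 3), against 0.317 ± 0.395 CPM in control, and a gene that passes through 1 group was bound to differ. Its log2 fold change in the combination was 2.17 (adjusted p = 0.00445, SE 0.50). Control replicate 3, with 15 counts, set the size of this value, which was 3.73 without it (adjusted p = 0.000385). Without DAC+SFN replicate 3 it was 2.68. With SFN the log2 fold change was 1.04 (95% interval -0.16 to 2.24, adjusted p = 0.237), and 2.62 without control replicate 3 (adjusted p = 0.0174). With DAC it was -0.04, with an interval from -1.47 to 1.39.

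Spry4 (chromosome 18, minus strand), a Sprouty inhibitor of receptor tyrosine kinase signaling, was at 5.15, 6.32 and 5.55 CPM in control, 9.69, 15.6 and 7.72 CPM under DAC, 10.8, 19.2 and 10.7 CPM under SFN, and 18.3, 22.1 and 13 CPM under DAC+SFN. All 9 treated libraries were above the control libraries, with replicate 2 the highest in each group. On the log2 scale it rose by 0.91 with DAC (adjusted p = 0.0344, SE 0.15), 1.23 with SFN (adjusted p = 0.000106, SE 0.15) and 1.64 with DAC+SFN (adjusted p = 3.96e-06, SE 0.15), the last a 3.11-fold increase. The call with DAC was lost without control replicate 1, control replicate 2, DAC replicate 1 or DAC replicate 2, at log2 fold changes of 0.90, 0.74, 0.93 and 0.82 and adjusted p-values of 0.210, 0.259, 0.0675 and 0.108.

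Spry2 (chr14:105891947-105896819, minus strand), a second Sprouty inhibitor, was at 14.9, 16.9 and 18.5 CPM in control, 19.7, 28.2 and 24.6 CPM under DAC, 27.1, 35.8 and 25.8 CPM under SFN, and 31.4, 41.9 and 25.5 CPM under DAC+SFN. The treated libraries were again all above the control libraries, but the 3 treatments overlapped each other. Its rise was 0.81 on the log2 scale with SFN (adjusted p = 0.000813, SE 0.13) and 0.96 with DAC+SFN (adjusted p = 8.67e-05, SE 0.13). With DAC it was 0.52 (SE 0.13), which did not pass after adjustment (adjusted p = 0.144).

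Spry1 (chr3:37639947-37644598, plus strand), of the same family, was at 21.5, 21.9 and 22.1 CPM in control, 19.4, 21.6 and 23.3 CPM under DAC, 23.0, 24.8 and 26.9 CPM under SFN, and 24.0, 26.4 and 23.2 CPM under DAC+SFN. The libraries with SFN, alone or combined, were all above the control libraries, and those with DAC lay on both sides of them. On the log2 scale its difference from control was -0.03 with DAC (95% interval -0.21 to 0.16), 0.19 with SFN (0.01 to 0.37) and 0.17 with DAC+SFN (-0.01 to 0.35), with adjusted p = 0.941, 0.159 and 0.149. Without DAC+SFN replicate 3 the value for the combination treatment was 0.24 and passed (adjusted p = 0.0481). Gene models on the other strand overlap Spry1, and also Dusp5 and Spry4. The library kit keeps the strand, but the strand setting of the counting is not given in the sources used here.

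Spred1 (chr2:117121374-117182279, plus strand) encodes a protein that brings neurofibromin, the inhibitor of RAS, to the membrane. It was at 100, 91.1 and 97.7 CPM in control, 96.1, 100 and 93.4 CPM under DAC, 99.3, 107 and 109 CPM under SFN, and 111, 96.5 and 107 CPM under DAC+SFN. The control libraries overlapped with those of all treatments. Its log2 difference from control was 0.00 for DAC (95% interval -0.14 to 0.14), 0.12 with SFN (-0.02 to 0.26) and 0.13 with DAC+SFN (-0.02 to 0.27). The upper end of each of these intervals was below the lower end of the interval for Spry2 (0.24, 0.53 and 0.69) and for Spry4 (0.58, 0.91 and 1.32) in the same treatment, and the difference between the genes was not tested.

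Etv5 (chr16:22381309-22439719, minus strand) had the smallest adjusted p of the 9 genes with SFN and with DAC+SFN. It was at 17.2, 23.8 and 17.2 CPM in control, 24.9, 58.3 and 25.5 CPM under DAC, 46.4, 73.1 and 41.0 CPM under SFN, and 65.7, 81.1 and 47.2 CPM under DAC+SFN. The libraries did not overlap between control and any treatment, and replicate 2 was the highest in every group. Log2 increases over control were 0.83 with DAC (adjusted p = 0.0344, SE 0.14), 1.44 with SFN (adjusted p = 1.65e-05, SE 0.14) and 1.73 with DAC+SFN (adjusted p = 1.51e-06, SE 0.14), the last a 3.33-fold increase. With DAC, the call was lost without control replicate 1, control replicate 2, DAC replicate 2 or DAC replicate 3, at 0.83, 0.70, 0.60 and 0.87 and adjusted p-values of 0.195, 0.259, 0.0766 and 0.0548. The replicates themselves differed in Etv5, with replicate 2 above replicate 1 by 0.66 on the log2 scale over the 4 groups (adjusted p of the block = 0.000152).

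Etv4 (chr11:101769742-101785371, minus strand) was lower and more variable. It was at 1.10, 3.48 and 2.72 CPM in control, 2.07, 7.59 and 3.03 CPM under DAC, 6.26, 11.7 and 4.54 CPM under SFN, and 10.8, 13.9 and 5.93 CPM under DAC+SFN. The DAC libraries overlapped with control, and those with SFN, alone or combined, did not. Etv4 rose by 1.60 on the log2 scale with SFN (adjusted p = 0.00251, SE 0.30) and 2.10 with DAC+SFN (adjusted p = 0.000129, SE 0.30), a 4.30-fold increase in the combination. With DAC it was 0.72 (adjusted p = 0.459, SE 0.32).

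**Figure D2:**
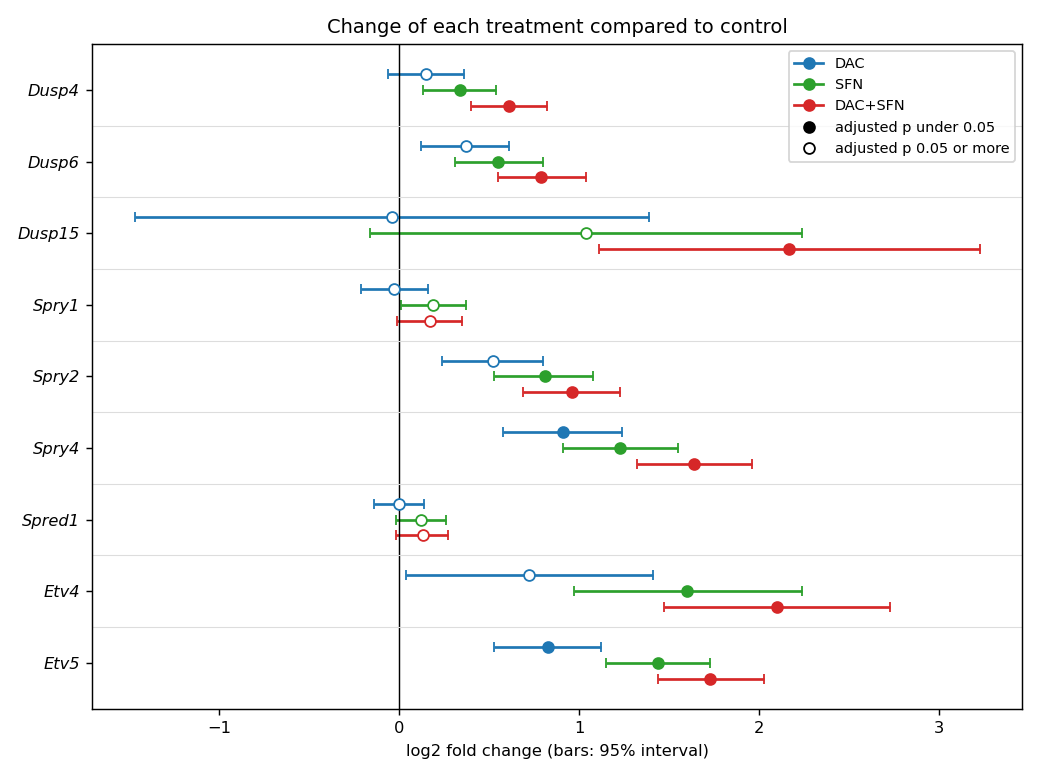
Log2 fold change compared to control (x axis) of the 9 tested genes (y axis) with DAC, SFN and DAC+SFN; points are the fitted values, bars their 95% intervals, and filled points passed at an adjusted p under 0.05. The values of 7 genes pass with DAC+SFN, and the intervals of Spry1 and Spred1 reach at most 0.37.

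Counted by overlap, all 3 DAC libraries were above all 3 control libraries in 5 of the 9 genes (4.09% of all genes), all SFN libraries in 7 (10.9%) and all DAC+SFN libraries in 8 (15.1%), with Dusp15 among the last through the filter. At an unadjusted p under 0.05, 5 of the 9 passed with DAC (10.1% of all genes), 7 with SFN (28.8%), 7 with DAC+SFN (42.4%) and 8 with DAC+SFN compared to DAC (30.5%). At a fold change above 2 as well as an adjusted p under 0.05, 3 of the 9 genes passed with SFN (Spry4, Etv4 and Etv5; 1.28% of all genes), 4 with DAC+SFN (the same and Dusp15; 2.66%) and 0 with DAC (0.0344%).

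When SFN was added to DAC, the same 7 genes that rose in the combination compared to control were higher than with DAC alone, where 16.1% of all genes passed, 9.55% higher and 6.60% lower. On the log2 scale the difference was 0.91 in Etv5 (adjusted p = 0.000450, SE 0.13), 0.72 in Spry4 (adjusted p = 0.00344, SE 0.14), 1.38 in Etv4 (adjusted p = 0.00411, SE 0.27), 0.46 in Dusp4 (adjusted p = 0.00580, SE 0.10) and 2.21 in Dusp15 (adjusted p = 0.00860, SE 0.50). Dusp6, at 0.43 (adjusted p = 0.0206), and Spry2, at 0.44 (adjusted p = 0.0273), were closer to the threshold. The libraries of DAC+SFN and DAC overlapped in 8 of the 9 genes, and in Dusp15 the filter set them apart, where all 3 were above all 3 in 9.19% of all genes. The value of Dusp15 in this comparison is likewise no support for a difference. Spry1 (0.20, adjusted p = 0.134) and Spred1 (0.12, adjusted p = 0.231) did not pass. Without DAC replicate 1, or without DAC+SFN replicate 1, 4 genes passed, and Dusp6, Dusp15 and Spry2 did not. Dusp6 and Spry2 also failed without DAC replicate 2 or DAC+SFN replicate 2. Of the 13 alternatives, 5 lost the call of Dusp6 and 6 that of Spry2. None of the 9 genes passed without the replicate block, where the adjusted p-values ran from 0.131 to 0.418. The log2 differences of the called genes hardly moved without it, at 0.85 in Etv5, 0.71 in Spry4, 1.31 in Etv4 and 0.48 in Dusp4.

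When DAC was added to SFN, 0 of the 9 genes passed in edgeR, and 0 in DESeq2, where 1.61% of all genes passed in edgeR, 0.937% higher and 0.670% lower. At an unadjusted p under 0.05, 4 of the 9 were higher (17.8% of all genes in either direction), namely Spry4 at 0.41 (95% interval 0.12 to 0.70), Dusp4 at 0.27 (0.07 to 0.48), Etv5 at 0.29 (0.02 to 0.56) and Dusp15 at 1.13 (0.23 to 2.03). The libraries overlapped in 8 of the 9 genes, and in Dusp15 the filter set them apart, where all 3 DAC+SFN libraries were above all 3 SFN libraries in 5.23% of all genes. DAC+SFN replicate 3 was the lowest of its group in each of the 7 genes, and without it Dusp4 (0.40, adjusted p = 0.00986), Dusp6 (0.41, adjusted p = 0.0113) and Dusp15 (1.62, adjusted p = 0.0460) passed, while the number of all genes called went from 187 to 700. In a fit of these 2 groups alone 6 of the 9 passed and 1221 of all genes.

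The interaction asks whether the change with DAC in the presence of SFN differs from that in its absence. None of the 9 genes passed, nor did any of the 11638 genes in edgeR or in DESeq2, with adjusted p-values of 0.847 and above in the 9 genes. At an unadjusted p under 0.05, 2 of the 9 genes and 5.87% of all genes differed. They were Etv5, at -0.53 (95% interval -0.93 to -0.13), and Spry4, at -0.51 (-0.95 to -0.07), so that in both the log2 change with DAC was smaller with SFN present. Their differences between replicates were unequal, at -0.03, -1.14 and -0.37 in Etv5 and -0.15, -1.09 and -0.19 in Spry4, with replicate 2 the lowest. For Dusp15 the value was 1.17, with an interval from -0.53 to 2.87.

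**Figure D3:**
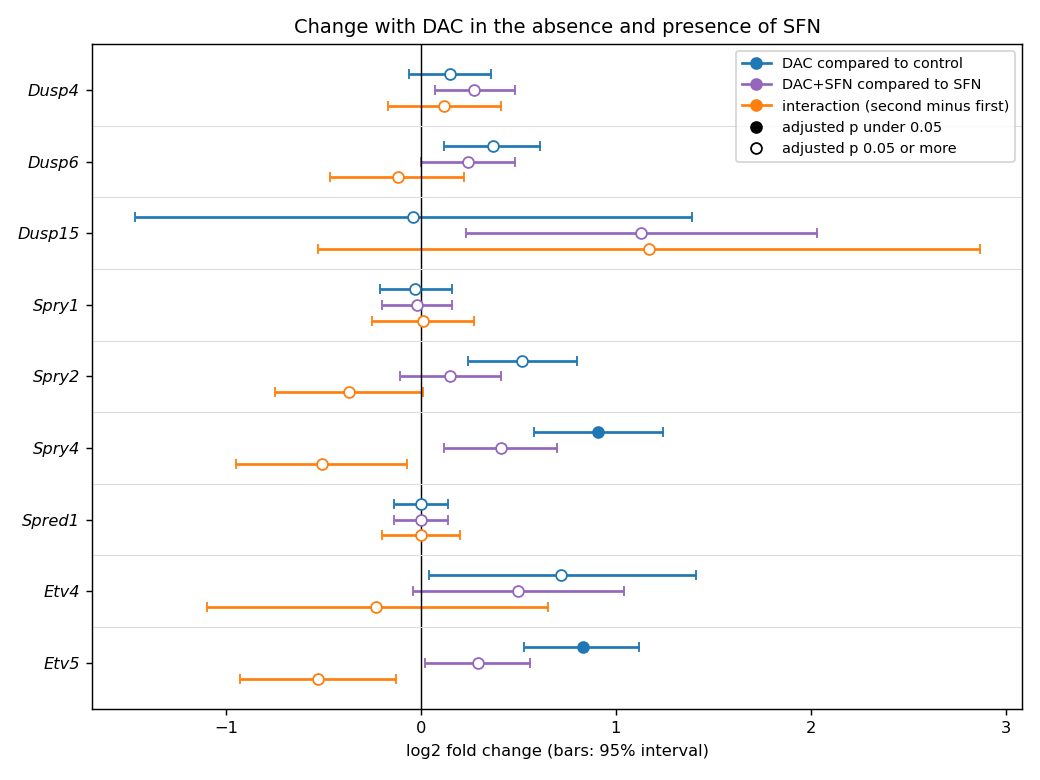
Log2 fold change (x axis) of the 9 tested genes (y axis) for DAC compared to control, DAC+SFN compared to SFN, and their difference (the interaction); bars are 95% intervals and filled points passed at an adjusted p under 0.05. Spry4 and Etv5 are filled for DAC compared to control, and no point of the other comparisons is filled.

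After replicate means were removed from log2 CPM, the 21 pairs among them had Pearson correlations between 0.84 and 0.97 (median 0.93) over the 12 samples, and the 14 pairs of Spry1 or Spred1 with them between 0.55 and 0.73 (median 0.68). The 7 genes are those that passed in the combination treatment and the other 2 are those that did not, over the same libraries, so that a higher correlation among the 7 follows from how they were chosen, and the values are a description only.

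Of 17 relatives of the 10 genes (other Dusp, Sprouty, Spred and PEA3 genes), 15 passed the filter. None of them passed the test with DAC, 5 rose with SFN, and 9 rose and 1 fell with DAC+SFN, with medians of 0.21, 0.17 and 0.33 on the log2 scale. Over all genes, 8.27% were higher with SFN, and 17.0% higher and 14.7% lower with DAC+SFN. Dusp14, which encodes an atypical dual specificity phosphatase, was at 3.13, 5.08 and 4.62 CPM in control and 8.79, 15.5 and 8.45 CPM under DAC+SFN, a log2 fold change of 1.34 (adjusted p = 3.97e-05, SE 0.16). Etv1, the third PEA3 factor, was at 9.52, 13.3 and 10.5 CPM in control and 24.9, 25.6 and 18.4 CPM under DAC+SFN, a log2 fold change of 1.05 (adjusted p = 4.04e-05, SE 0.13). In both genes the libraries did not overlap. Smaller increases with DAC+SFN were seen in Spred3 (0.77), Dusp1 (0.73), Dusp10 (0.64), Dusp3 (0.39), Dusp16 (0.37), Dusp8 (0.33) and Spred2 (0.29). Dusp22, an atypical phosphatase, fell by 0.35 (adjusted p = 0.00681). With SFN, Dusp14 (1.14), Etv1 (0.73), Dusp1 (0.58), Dusp3 (0.24) and Dusp16 (0.21) passed.

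Of 24 kinases and RAS regulators of the cascade itself, 23 passed the filter, and 0 passed the test with DAC, 1 with SFN and 3 with DAC+SFN, all higher, beside 0.180%, 13.9% and 31.6% of all genes. Their medians were -0.02, -0.00 and 0.02 on the log2 scale, over a range from -0.31 to 0.38 with DAC+SFN. The 3 were Hras (0.38, adjusted p = 0.00170), a RAS protein, and Nf1 (0.20, adjusted p = 0.0168) and Rasa2 (0.21, adjusted p = 0.0336), both of which switch RAS off. Hras was the gene that passed with SFN (0.29, adjusted p = 0.0172). Compared to DAC, the combination treatment was higher in Nf1 (0.27, adjusted p = 0.00747) and lower in Ksr1, a scaffold of the cascade (-0.48, adjusted p = 0.0254), which is named here after its value was seen.

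Of 13 ligands of the receptors upstream of ERK, 6 passed the filter, of which 0 passed the test with DAC, 4 rose with SFN and 5 rose with DAC+SFN, with medians of 0.34, 0.86 and 1.10, beside 8.27% of all genes higher with SFN and 17.0% with DAC+SFN. Pdgfa, a ligand of platelet-derived growth factor receptors, was at 6.58, 10.2 and 8.27 CPM in control and 18.0, 31.8 and 15.3 CPM under DAC+SFN, a log2 fold change of 1.35 (adjusted p = 1.40e-05, SE 0.14). Fgf1, a fibroblast growth factor, rose by 0.70 (adjusted p = 4.30e-05), Hbegf, a ligand of the EGF receptor, by 1.08 (adjusted p = 0.000123) and Kitl, the ligand of Kit, by 1.12 (adjusted p = 0.000352). The values of these 4 with SFN were 1.17, 0.46, 1.05 and 0.94, all of which passed. Egfr, the gene of the EGF receptor, had 0 counts in every library, and a response to Hbegf was not tested. Of 16 receptors, 11 passed the filter, with 0 called with DAC, 2 higher and 2 lower with SFN, and 3 higher and 2 lower with DAC+SFN, beside 0.180%, 13.9% and 31.6% of all genes in either direction. Their medians were -0.01, -0.03 and -0.06. With DAC+SFN, Met, the receptor of hepatocyte growth factor, fell by 0.41 (adjusted p = 0.000512) and Pdgfra by 0.73 (adjusted p = 0.0249), while Axl (0.88, adjusted p = 0.000608) and Igf1r (0.41, adjusted p = 0.00553) rose.

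Of 12 other genes known as outputs of ERK signaling, 11 passed the filter, with 1 higher with DAC, 3 higher and 1 lower with SFN, and 4 higher and 1 lower with DAC+SFN, beside the same shares of all genes. Their medians were 0.08, 0.08 and 0.28. Ccnd1, which encodes cyclin D1, was at 233, 452 and 273 CPM in control, 332, 759 and 392 CPM under DAC, 575, 1215 and 581 CPM under SFN, and 880, 1375 and 667 CPM under DAC+SFN. Replicate 2 was the highest in each group, as in Etv5. Ccnd1 rose by 0.60 on the log2 scale under DAC (adjusted p = 0.0344), 1.27 with SFN (adjusted p = 4.36e-06) and 1.61 with DAC+SFN (adjusted p = 2.55e-07). Epha2, an ephrin receptor, rose by 1.40 with DAC+SFN (adjusted p = 0.000522) and Plaur, the urokinase receptor, by 0.81 (adjusted p = 0.000171). Ier3, an immediate early gene, fell by 0.71 (adjusted p = 0.0123).

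**Figure D4:**
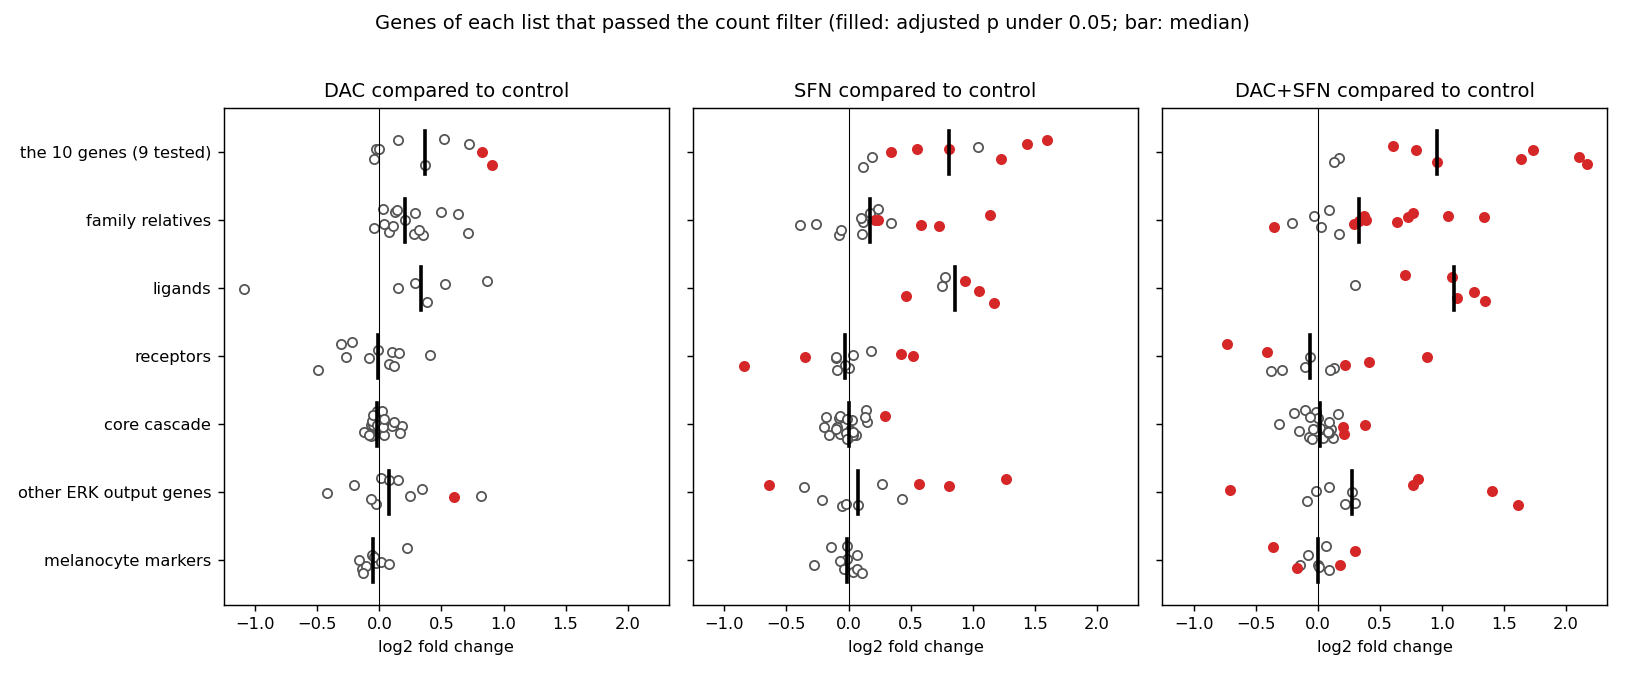
Log2 fold change compared to control (x axis) of the tested genes of each list (y axis) with DAC, SFN and DAC+SFN (panels); points are genes, filled where the adjusted p was under 0.05, and bars are medians. With DAC+SFN the medians are 0.96 in the 9 tested genes, 1.10 in the ligands, 0.33 in the relatives and 0.02 in the core cascade.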

How the data were processed

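The authors trimmed the reads with Trimmomatic 0.38, checked them with FastQC 0.11.7, aligned them to mm10 with TopHat 2.1.1 and counted unique reads on known genes with htseq, and deposited whole-number counts per gene without normalization. The annotation and strand setting of the counting are not given in the sources used here. Groups and replicate numbers were taken from the labels. All 12 samples entered 1 model in edgeR 4.0.16 (glmQLFTest, legacy fit, TMM, two-sided) in R 4.3.3, with genes of at least 1 CPM in at least 3 libraries, and p-values were adjusted by Benjamini-Hochberg over all 11638 genes. A gene was called, or rose or fell, at an adjusted p under 0.05. SE is the absolute log2 fold change over the root of the F statistic, and replicate differences carry a prior count of 2.

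The study's methods correct for a batch that they do not define, so the replicate number was a block. Library numbers in the labels follow the replicate number, and the 2 cannot be told apart. Same-numbered samples deviated together in all 18 pairs (r = 0.270 to 0.732). Replicate libraries were not copies (chi-square per gene between pairs, 13.6 to 37.5).

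Levels per kilobase and gene positions used GENCODE M21 on mm10, and promoters RefSeq on GRCm38.p6. The 10 genes, the lists and the motifs were chosen with earlier results of these data known. Named were the 10 genes in every comparison, the called relatives, up to 4 genes with the smallest adjusted p in each of the core cascade, receptor, ligand and output lists, and the 3 genes most like the member with the smallest adjusted p in the combination treatment. Marker genes, Egfr and Fos were named besides. Alternatives were DESeq2 1.42.0 and its size factors, edgeR's version 4 fit, other filters, no block, only the groups compared, a fold above 2 and each sample left out.  Figures used matplotlib 3.10.9 in Python 3.11.15.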

Additional observations from a re-analysis of the deposited data

How the results depend on the processing

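With DAC+SFN compared to control, the 7 called genes passed under each alternative that gave a value (Dusp15 had none with at least 10 counts in every sample), and 4 of them had a fold above 2. Dusp15 is counted here and among the genes that passed compared to DAC. The filter of the main fit fixed its direction with DAC+SFN, so its passing is no support for a change. With DAC, 2 genes passed, and 0 with a fold above 2, 4 with no filter on low counts, 0 with no replicate block, 5 with only the groups compared, and 0 to 2 with a sample left out. With SFN, 6 passed, and 3 with a fold above 2, 0 with no replicate block and 5 to 7 with a sample left out. With DAC+SFN compared to DAC, 7 passed, and 2 with a fold above 2, 0 with no replicate block and 4 to 8 with a sample left out. With DAC+SFN compared to SFN, 0 passed, and 6 with only the groups compared and 0 to 3 with a sample left out. The replicate block also set the number of all genes called, which was 21, 1619, 3683, 1879 and 187 in these 5 comparisons in the order DAC, SFN and DAC+SFN compared to control, and DAC+SFN compared to DAC and to SFN, and 0, 23, 1201, 20 and 0 without it. A fold above 2 left 4, 149, 310, 108 and 13 genes. For DAC, DESeq2 called 83 genes, the version 4 fit 33, no filter 169 and only the groups compared 662. DAC+SFN compared to DAC gave 760 with only the groups compared, and DAC+SFN compared to SFN gave 404 with DESeq2, 486 with no filter and 1221 with only the groups compared. With a sample left out, these 5 counts of all genes ran from 0 to 23, 728 to 1466, 2336 to 4205, 770 to 2381 and 0 to 700. They moved by over 1.5 times with DAC without control replicate 1 (0) or 2 (2) or DAC replicate 2 (11) or 3 (8), and with SFN without control replicate 1 (856) or 2 (777) or SFN replicate 1 (1011), 2 (728) or 3 (1012). The same held for DAC+SFN compared to control without control replicate 2 (2336) or DAC+SFN replicate 1 (2394), for DAC+SFN compared to DAC without DAC replicate 1 (893) or 2 (1013) or DAC+SFN replicate 1 (770), and for DAC+SFN compared to SFN without SFN replicate 1 (2) or 3 (0) or DAC+SFN replicate 1 (2), 2 (80) or 3 (700). The interaction gave 1 gene with no filter. No value that changed sign passed the test. With a sample left out, Spred1 ran from -0.05 to 0.05 with DAC and from -0.06 to 0.06 with DAC+SFN compared to SFN. In the interaction it ran from -0.07 to 0.07. With DAC, Dusp15 was 0.03 in DESeq2 and -0.50 to 1.58 with a sample left out, and Spry1 -0.08 to 0.02. With DAC+SFN compared to SFN, Spry1 ran from -0.07 to 0.06. In the interaction, with a sample left out, Spry1 ran from -0.04 to 0.09, Etv4 from -0.61 to 0.04, Dusp15 from -0.46 to 1.69, Dusp4 from -0.03 to 0.25 and Dusp6 from -0.27 to 0.04. The cause of these differences was not tested. Depth limits Dusp5 and Dusp15, at 2 to 8 and 1 to 31 counts per library, and intervals cover these samples only.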

Other observations

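Over the 12 samples, after replicate means were removed from log2 CPM, the genes most like Etv5 were Tm4sf1, which encodes a membrane protein, Fam212b and Ccnd1, with Pearson correlations of 0.985 each. These points share the treatments, so the correlations are a description. Tm4sf1 was at 67.3, 108 and 77.4 CPM in control and 151, 244 and 129 CPM under DAC+SFN, and its log2 fold change was 0.43 with DAC (adjusted p = 0.116), 0.94 with SFN (adjusted p = 3.66e-05) and 1.03 with DAC+SFN (adjusted p = 7.06e-06). Fam212b was at 15.6, 22.1 and 16.2 CPM in control, 23.5, 36.5 and 22.4 CPM under DAC, 35.1, 53.1 and 33.4 CPM under SFN, and 52.3, 63.0 and 39.3 CPM under DAC+SFN. Its log2 fold change was 0.60 with DAC (adjusted p = 0.0196), 1.16 with SFN (adjusted p = 3.63e-06) and 1.52 with DAC+SFN (adjusted p = 2.11e-07), and no gene had a smaller adjusted p in that comparison. In Fam212b, as in Etv5, the DAC+SFN libraries were all above the control libraries, and replicate 2 was the highest in every group.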
